A study of Mus musculus with 4 samples.

Results

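Acod1 and 8 enzymes of the TCA cycle (Cs, Idh3a, Idh1, Ogdh, Sdha, Sdhb, Fh1 and Mdh2) were followed across 4 arrays of mouse bone marrow-derived dendritic cells. They were chosen by name, and each was read from every probe set annotated to its symbol alone. These were 20 probe sets for 9 of the 18193 genes that the array's annotation names in this way. The arrays came from 4 groups. LXR-DKO LPS and LXR-DKO control cells lacked both liver X receptors, LXRα and LXRβ, and WT LPS and WT control cells carried both; the strain label was C57/BL6 for all of them. Bone marrow was grown with GM-CSF at 20 ng/mL for 6 to 7 days, and non-adherent cells were enriched with beads against CD11c. They were then kept with GM-CSF at 10 ng/mL for 24 h, with LPS at 100 ng/mL in the LPS groups and without it in the control groups. Each group was 1 array, so no ratio below has a replicate check and no p-value is given. Age, sex and the number of mice per culture are not given in the sources used here.

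The TCA cycle oxidises acetyl-CoA in the mitochondrial matrix and passes electrons to the respiratory chain. Succinate dehydrogenase, made of the subunits Sdha, Sdhb, Sdhc and Sdhd, belongs to both, since it is also complex II of the chain. Acod1, long known as Irg1, sits on a branch of the cycle: it decarboxylates cis-aconitate, an intermediate between citrate and isocitrate, to itaconate. In macrophages and dendritic cells it is a classical LPS-induced gene, and itaconate is a competitive inhibitor of succinate dehydrogenase and a thiol-reactive metabolite that can activate the transcription factor NRF2. Liver X receptors are nuclear receptors for oxysterols that regulate cholesterol handling and inflammatory genes in myeloid cells.

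The promoter windows of the 4 genes with the largest genotype ratios below, Acod1, Sdhb, Sdha and Fh1, are printed so that the branch enzyme can be set beside the cycle enzymes. RefSeq windows on GRCm38.p6, from 250 bases before to 50 bases after an annotated start, were matched for 8 of the 9 genes, with 14 windows. The Acod1 window lies at chr14:103046762-103047061 on the plus strand, the Sdhb window at chr4:140961021-140961320 on the plus strand, the Sdha window at chr13:74350191-74350490 on the minus strand and the Fh1 window at chr1:175625586-175625885 on the minus strand. Each is written 5′ to 3′ along its gene, and capitals mark every match, on either strand, to the motifs described after them.
Acod1 promoter: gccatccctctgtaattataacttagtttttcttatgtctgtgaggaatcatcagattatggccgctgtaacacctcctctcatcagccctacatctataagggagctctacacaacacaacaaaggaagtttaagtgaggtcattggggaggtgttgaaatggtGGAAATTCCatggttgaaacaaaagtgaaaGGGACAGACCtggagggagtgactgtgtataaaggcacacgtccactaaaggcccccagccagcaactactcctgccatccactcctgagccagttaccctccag
Sdhb promoter: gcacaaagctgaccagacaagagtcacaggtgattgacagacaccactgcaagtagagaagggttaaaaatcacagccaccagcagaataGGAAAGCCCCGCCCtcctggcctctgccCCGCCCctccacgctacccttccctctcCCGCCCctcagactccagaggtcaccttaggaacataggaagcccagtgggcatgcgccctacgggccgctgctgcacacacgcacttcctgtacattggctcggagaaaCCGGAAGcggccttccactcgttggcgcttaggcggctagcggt
Sdha promoter: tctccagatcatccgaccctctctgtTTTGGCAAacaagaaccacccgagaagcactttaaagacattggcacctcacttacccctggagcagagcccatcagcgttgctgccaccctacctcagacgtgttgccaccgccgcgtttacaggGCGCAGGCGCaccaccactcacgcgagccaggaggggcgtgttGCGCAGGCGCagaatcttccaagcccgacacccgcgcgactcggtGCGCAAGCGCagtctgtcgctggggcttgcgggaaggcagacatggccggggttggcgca
Fh1 promoter: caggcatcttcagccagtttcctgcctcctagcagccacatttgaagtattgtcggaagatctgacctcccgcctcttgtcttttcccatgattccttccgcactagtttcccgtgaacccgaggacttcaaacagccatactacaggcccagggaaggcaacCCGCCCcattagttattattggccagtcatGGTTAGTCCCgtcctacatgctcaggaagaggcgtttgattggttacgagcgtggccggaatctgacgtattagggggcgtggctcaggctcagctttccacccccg

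In the Acod1 window the letters GGAAATTCC, a form of the NF-κB motif added after the sequences were seen, began 85 bases before the start; they are present in 0.317% of the 32851 windows in the table. A match to the looser NF-κB form, GGG and CC with any 5 bases between them, began 55 bases before the start, but that form is present in 50.8% of all windows. The Sdha window held the NRF1 form, GCGCA and GCGC with any 1 base between them, at 98, 55 and 10 bases before the start, a form present in 4.60% of all windows. It also held the C/EBP form TTGCNNAA on the reverse strand at 224 bases before the start (10.8% of all windows). NRF1, nuclear respiratory factor 1, is a known activator of genes for mitochondrial proteins and is not the electrophile sensor NRF2. In the Sdhb window the Sp1 form GGGCGG was read on the reverse strand at 152, 132 and 104 bases before the start, and this form is present in 35.7% of all windows. The first of these overlaps a reverse-strand match to the looser NF-κB form at 160 bases before the start. The same window held the ETS form CCGGAAG from the base at position 7 after the start, a form present in 8.86% of all windows. The Fh1 window had reverse-strand matches to GGGCGG at 87 bases and to the looser NF-κB form at 57 bases before the start. The letters searched for the ISRE (GAAA and GAAA with any 2 bases between them, in 3.44% of all windows), GAS (TTCNNNGAA, 8.30%), AP-1 (TGANTCA, 7.81%), PU.1 (GAGGAAG, 13.6%), ERR (AAGGTCA, 4.72%), the E-box (CACGTG, 7.15%) and the LXR element of the DR4 type (AGGTNA and AGGTNA with any 4 bases between them, 0.0974%) were not in these 4 windows. Such matches describe letters only, and binding was not measured.

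The deposited values were MAS5 signals, linear brightness values per probe set, scaled so that each array had the same trimmed mean. A floor of 28.9, the pooled median of all probe sets, was set under dim values, and 47.8 to 52.6% of the probe sets of an array reached it. A gene's ratio was taken from its brightest probe set. The SD between probe sets that read 1 gene, pooled over genes and on the log2 scale, served as the only internal error; it was 0.42 for the LPS response in LXR-DKO cells, 0.29 for that in WT cells, 0.54 for LXR-DKO over WT with LPS and 0.45 without LPS. It covers differences within these arrays and not those between cultures or mice. Of the 20 probe sets, 16 reached the floor on all 4 arrays, and the brightest probe set of each of the 9 genes was among them. Il6, a cytokine gene induced by LPS, had signals of 5492 in LXR-DKO LPS and 32.7 in LXR-DKO control cells, and of 2828.7 in WT LPS and 29.3 in WT control cells. Nr1h3, which encodes LXRα, had 27 and 40.4 in LXR-DKO LPS and control cells, against 54.5 and 108.6 in WT LPS and control cells; whether its probe set lies in the deleted part is not given in the sources used here, and Nr1h2, which encodes LXRβ, was not analysed here.

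Several markers of other cells moved with genotype, and their part in the genotype ratios below was not tested. Summed over 8 neutrophil genes, signals were 23504.6 and 19038.9 in LXR-DKO LPS and control cells, against 3181.4 and 1870.1 in WT LPS and control cells. All 8 genes reached the floor in both LXR-DKO arrays, against 3 in WT LPS and 4 in WT control cells. The 6 mast cell and basophil genes summed to 1974.4 and 956.6 in LXR-DKO LPS and control cells, against 396.9 and 523.2 in WT LPS and control cells. All 6 reached the floor in both LXR-DKO arrays, against 3 in WT LPS and 5 in WT control cells. Without LPS, Kit went the other way, with 49.3 in LXR-DKO and 92.3 in WT control cells. Fcer1a was nearly level there, at 36.3 against 33.5. The 4 measured B cell genes summed to 1707.1 and 491.5 in LXR-DKO LPS and control cells, against 71.6 and 88.4 in WT LPS and control cells. All 4 reached the floor in both LXR-DKO arrays, against 1 in each WT array, and Cd79a was at 1.2 in WT LPS and 4.9 in WT control cells. The 6 proliferation genes were all above the floor and summed to 7001.5 and 10711.5 in LXR-DKO LPS and control cells, against 1025.9 and 5592.8 in WT LPS and control cells. The 5 measured macrophage genes were also all above the floor, with sums of 16095.5 and 18625.1 in LXR-DKO LPS and control cells, against 26386.6 and 20115.3 in WT LPS and control cells. Single genes took both sides. Cd68 was lower, with 2139.2 and 2836.3 in LXR-DKO LPS and control cells, against 8902.7 and 7043.9 in WT LPS and control cells. Csf1r was lower with LPS (6885.7 against 9551.4) and nearly level without (7445.8 against 7831.1). Mertk was nearly level with LPS (131.6 against 137.9) and lower without (207.3 against 365.8). Fcgr1 was higher, with 1673.8 and 2689.5 in LXR-DKO LPS and control cells, against 531.8 and 643 in WT LPS and control cells. Adgre1 was lower with LPS (5265.2 against 7262.8) and higher without (5446.2 against 4231.5). Itgax, which encodes the CD11c used for enrichment, was bright on every array, with 3848.1 and 4404.5 in LXR-DKO LPS and control cells, against 6093 and 5012.2 in WT LPS and control cells. Over the 6 dendritic cell genes, signals summed to 22916.9 and 24830.8 in LXR-DKO LPS and control cells, against 15326.3 and 15467.4 in WT LPS and control cells. Cd74, the invariant chain of MHC class II, was also bright on every array, with 10035.5 and 10329.7 in LXR-DKO LPS and control cells, against 7438.2 and 7831.8 in WT LPS and control cells. The other 4 genes were higher in LXR-DKO cells. H2-Ab1, an MHC class II gene, had 7814.2 and 8527.1 in LXR-DKO LPS and control cells, against 1709.8 and 2493.5 in WT LPS and control cells. Ciita, the activator of class II genes, had 718.5 and 1239.7 in LXR-DKO LPS and control cells, against 42.9 and 80.6 in WT LPS and control cells. Flt3, a growth factor receptor of dendritic cells and their precursors, reached the floor in LXR-DKO LPS cells only and had 107.3 and 23.9 in LXR-DKO LPS and control cells, against 13.4 and 9.9 in WT LPS and control cells. Zbtb46 had 393.3 and 305.9 in LXR-DKO LPS and control cells, against 29 and 39.4 in WT LPS and control cells, just above the floor. In bulk RNA, fewer cells of a type and less RNA per cell cannot be told apart.

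Acod1 was the gene of the 9 that differed most between arrays. Its single probe set (1427381_at) had signals of 3481.9 in LXR-DKO LPS, 61.0 in LXR-DKO control, 7208.1 in WT LPS and 993.5 in WT control cells. Both LPS arrays were above both control arrays, the WT LPS array was the brightest and the LXR-DKO control array stood far below the other 3. With LPS the signal was 57.1-fold higher in LXR-DKO cells (log2 ratio 5.83) and 7.26-fold higher in WT cells (log2 ratio 2.86). Each ratio was larger than the SD between probe sets, and Acod1 ranked 7 of 11793 genes from the highest in LXR-DKO cells and 46 of 11449 in WT cells. The difference of the log2 responses, LXR-DKO minus WT, was 2.98, rank 28 of 12478 genes, against an SD between probe sets of 0.43.

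Between genotypes, Acod1 was lower in LXR-DKO cells both with and without LPS. Without LPS its log2 ratio was −4.03, a signal 16.3-fold lower, rank 26 from the lowest of 11728 genes. With LPS it was −1.05, or 2.07-fold lower, rank 962 from the lowest of 12014 genes. The 61.0 of the LXR-DKO control array enters the LPS response, the genotype ratio without LPS and the difference of responses alike, so these 3 values share 1 measurement. With the floor raised to 177.4, above that measurement, the LPS response in LXR-DKO cells was 4.29, the ratio without LPS −2.49 and the difference 1.44 on the log2 scale, each with the same sign.

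**Figure D1:**
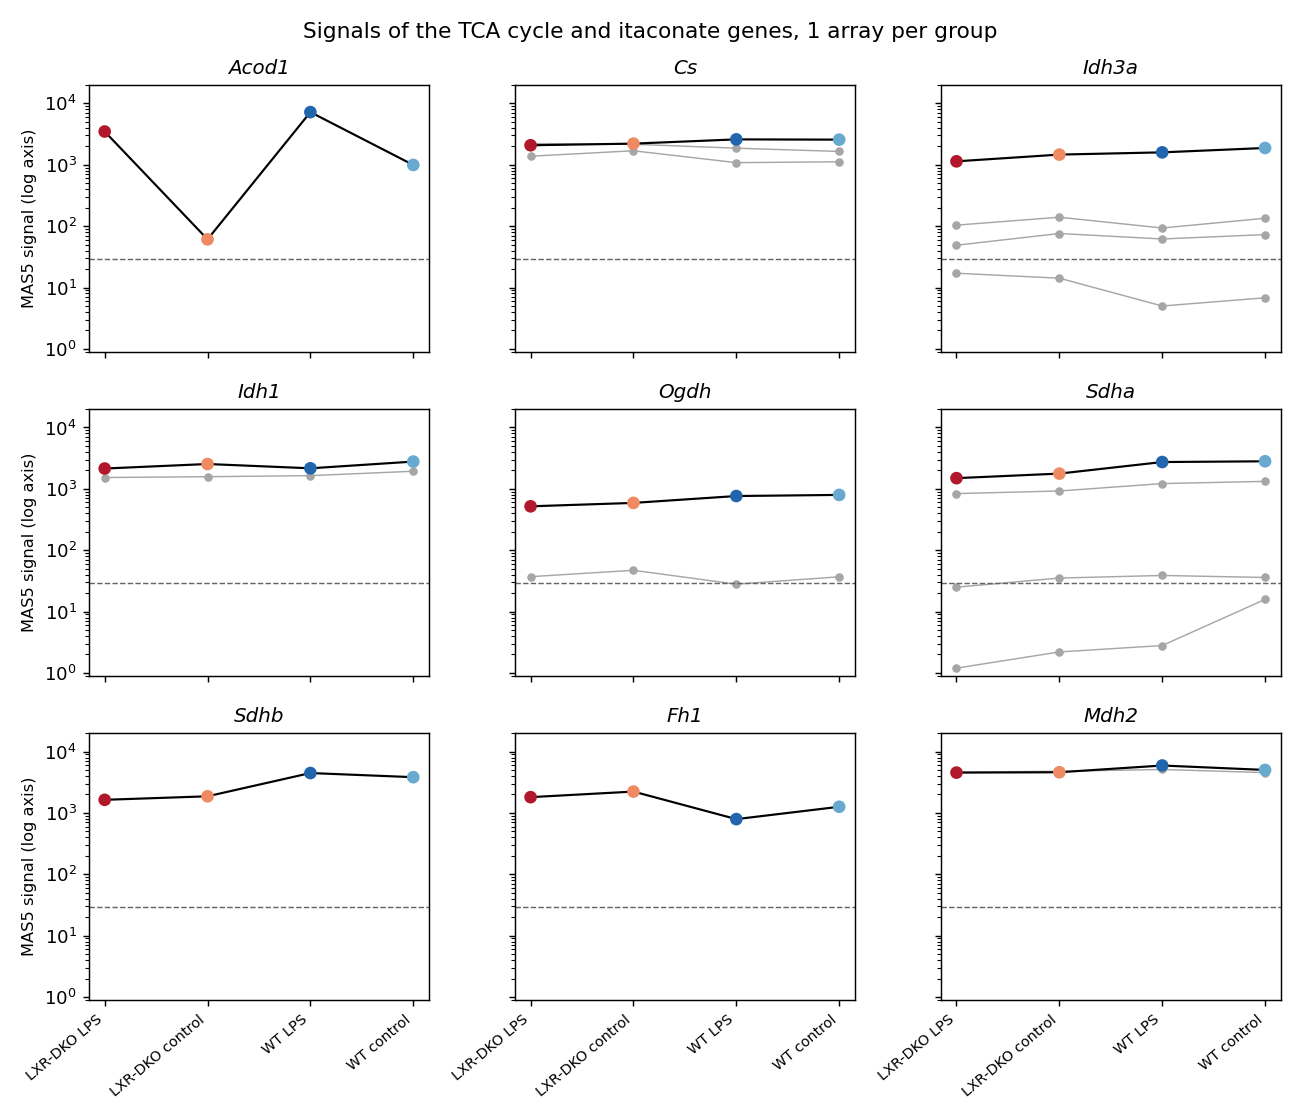
Signals of the 9 genes on the 4 arrays, 1 array per group, with MAS5 signal on a log axis; coloured points and the black line are the brightest probe set of a gene, grey points the other probe sets, and the dashed line the floor of 28.9. Acod1 spans 61.0 to 7208.1, while the brightest probe set of Cs stays between 2079.8 and 2592.6.

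The enzymes that carry citrate to 2-oxoglutarate had LPS and genotype ratios within the SD between probe sets by their brightest probe set, with the exception of Idh1 and LPS in WT cells. Cs, citrate synthase, which joins acetyl-CoA to oxaloacetate, had 2079.8 and 2212 in LXR-DKO LPS and control cells, against 2592.6 and 2567.9 in WT LPS and control cells (1450667_a_at). Its log2 ratio was −0.09 with LPS in LXR-DKO cells and 0.01 in WT cells, and LXR-DKO over WT was −0.32 with LPS and −0.22 without. Its other probe sets gave the opposite sign between genotypes: without LPS, 1422578_at gave 0.39 and 1422577_at gave 0.60, so no direction can be given for Cs between genotypes. Idh3a, the catalytic subunit of the NAD-dependent isocitrate dehydrogenase of the cycle, had 1138.1 and 1465.5 in LXR-DKO LPS and control cells, against 1593.7 and 1877.9 in WT LPS and control cells (1432016_a_at). With LPS it was lower in both genotypes, at −0.36 in LXR-DKO and −0.24 in WT cells, and its dimmer probe sets 1422501_s_at and 1422500_at had the same sign in both (−0.43 and −0.63 in LXR-DKO, −0.53 and −0.24 in WT cells). Its genotype ratio was −0.49 with LPS and −0.36 without, where both dimmer probe sets gave 0.06.

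Idh1 is the NADP-dependent isocitrate dehydrogenase of the cytosol and peroxisomes, and thus runs outside the mitochondrial cycle. It had 2144.3 and 2540.6 in LXR-DKO LPS and control cells, against 2162.4 and 2782.1 in WT LPS and control cells (1422433_s_at). The LPS arrays were lower than the control arrays of the same genotype, with log2 ratios of −0.24 in LXR-DKO and −0.36 in WT cells, the second past the SD between probe sets. Between genotypes it was the least different of the 9 with LPS, at −0.01, against −0.13 without LPS.

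Ogdh encodes the first component of the 2-oxoglutarate dehydrogenase complex, which forms succinyl-CoA. Its signal was 519.5 and 590.5 in LXR-DKO LPS and control cells, against 764.2 and 796.9 in WT LPS and control cells (1451274_at). Both LXR-DKO arrays were below both WT arrays, and how many of all genes do the same was not counted. LXR-DKO over WT came to −0.56 on the log2 scale with LPS, just past the SD between probe sets, and −0.43 without LPS, within it. A second probe set (1445632_at) lay near the floor, between 28 and 47.1, and had the opposite sign, 0.36 with LPS and 0.35 without, the first with the WT LPS value set to the floor.

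Succinate dehydrogenase transcripts were lower in LXR-DKO than in WT cells. Sdha, the flavoprotein subunit that binds succinate, had 1494.8 and 1772.9 in LXR-DKO LPS and control cells, against 2735.6 and 2812 in WT LPS and control cells (1426688_at). The genotype ratio was −0.87 with LPS and −0.67 without LPS on the log2 scale. A second probe set of Sdha (1426689_s_at), with 837.8 and 923.3 in LXR-DKO LPS and control cells, against 1219 and 1324.5 in WT LPS and control cells, gave −0.54 with LPS and −0.52 without. Sdhb, the iron-sulphur subunit that passes the electrons on, had 1635.7 and 1867.1 in LXR-DKO LPS and control cells, against 4467.2 and 3826.2 in WT LPS and control cells (1418005_at). Its genotype ratio was −1.45 with LPS, 2.73-fold lower, and −1.04 without LPS, 2.05-fold lower. For Sdha and Sdhb the ratios of the brightest probe set were larger than the SD between probe sets, with and without LPS. With LPS neither subunit differed by more than that SD in either genotype: Sdha was at −0.25 in LXR-DKO and −0.04 in WT cells, and Sdhb at −0.19 in LXR-DKO and 0.22 in WT cells.

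The membrane anchors of the same complex, Sdhc and Sdhd, are among the other cycle genes and lay on the same side. Sdhc had 1564.1 and 1652.4 in LXR-DKO LPS and control cells, against 2097 and 2457.5 in WT LPS and control cells, with log2 ratios of LXR-DKO over WT of −0.42 with LPS and −0.57 without. Sdhd had 1466.4 and 1745.1 in LXR-DKO LPS and control cells, against 3021.6 and 2751.7 in WT LPS and control cells, with log2 ratios of −1.04 with LPS and −0.66 without. With LPS the Sdhc ratio was within the SD between probe sets of 0.54. The second probe set of Sdhd (1437489_x_at) gave −0.40 with LPS and −0.75 without, and that of Sdhc (1435986_x_at) −0.44 and −0.75. Between genotypes, 47.8% of all genes were at least 1.5-fold higher or lower with LPS, and 42.2% without. Over the 4 subunits, 7 probe sets reached the floor on all 4 arrays, and all 7 were below 0 with LPS, between −1.45 and −0.40, and without LPS, between −1.04 and −0.52. Counted by gene, 5005 of all 12014 genes were below 0 with LPS and 5547 of 11728 without. The 4 assembly factors of the complex had no such common side: the median ratio was −0.21 with LPS and 0.03 without, and with LPS Sdhaf1 was higher at 1.04 while Sdhaf4 was at −0.55 and Sdhaf2 at −0.29.

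Fh1 and Mdh2 close the cycle from fumarate to oxaloacetate. Fh1, fumarate hydratase, was the only one of the 9 genes higher in LXR-DKO cells by its brightest probe set, with 1808.1 and 2229.1 in LXR-DKO LPS and control cells, against 792.7 and 1260.3 in WT LPS and control cells (1424828_a_at). The genotype ratio was 2.28-fold (log2 1.19) with LPS and 1.77-fold (log2 0.82) without LPS, both past the SD between probe sets. With LPS, Fh1 was at −0.30 in LXR-DKO and −0.67 in WT cells, and the WT value was the only LPS ratio of an enzyme past 1.5-fold. This gene has 1 probe set, so no second probe set bears on it. Mdh2, the mitochondrial malate dehydrogenase, had signals of 4541.2 and 4602.5 in LXR-DKO LPS and control cells, against 5924.3 and 5019.9 in WT LPS and control cells (1433984_a_at). Its log2 ratios of LXR-DKO over WT were −0.38 with LPS and −0.13 without, and its second probe set (1416478_a_at) gave −0.14 and 0.07.

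**Figure D2:**
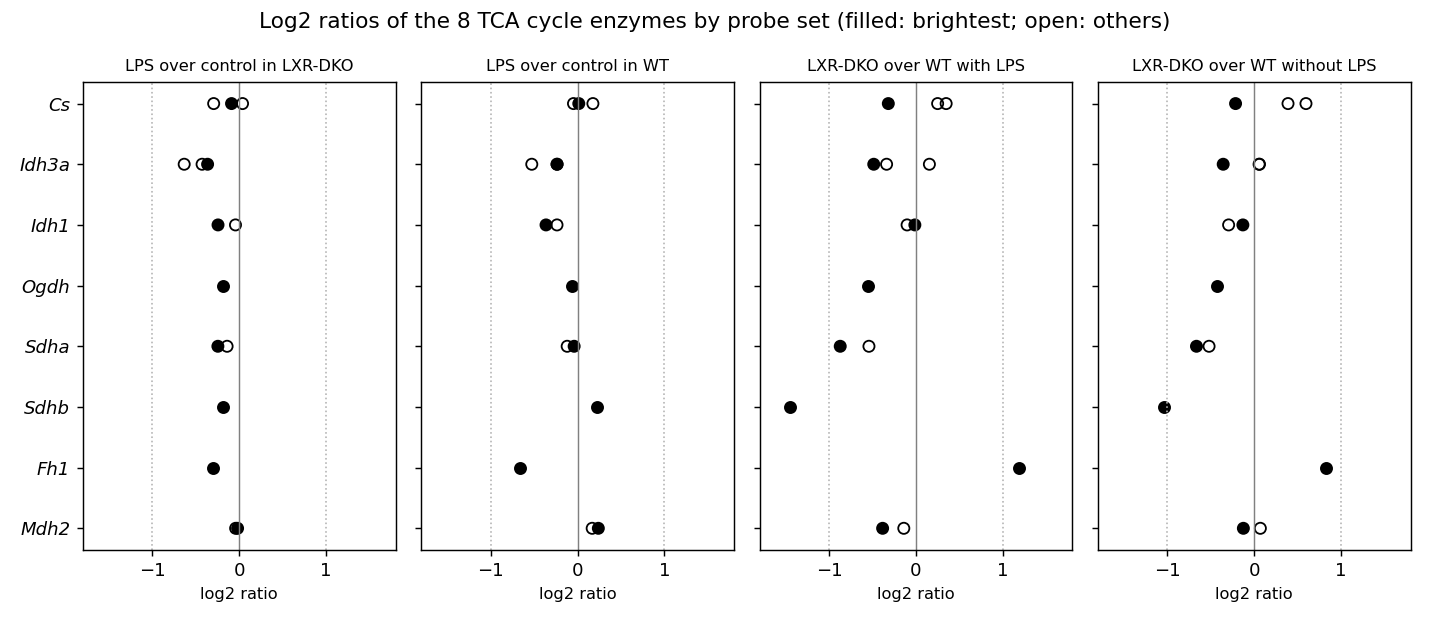
Log2 ratios (x axes) of the 8 TCA cycle enzymes in the 4 comparisons, for probe sets that reached the floor on every array; filled points are the brightest probe set of a gene, open points the others, and dotted lines mark 2-fold. Sdhb at −1.45 and Fh1 at 1.19 lie past 2-fold on opposite sides with LPS, while the probe sets of Cs fall on both sides of 0.

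Counted together, the cycle enzymes differed less with LPS than between genotypes, and so did all genes. At 1.5-fold, 22.1% of all genes passed with LPS in LXR-DKO and 20.3% in WT cells. Between genotypes 47.8% passed with LPS and 42.2% without, and 3 of the 8 enzymes did each time. In LXR-DKO cells all 8 had a log2 LPS ratio below 0, between −0.36 and −0.02, with a median of −0.22, and none was past the SD between probe sets. Over all genes the median was 0.02 in that comparison, and 5702 of 11793 were below 0. The ratios of Mdh2 (−0.02) and Cs (−0.09) were small, and a second Cs probe set (1422578_at) gave 0.04. In WT cells 5 of the 8 were below 0 and the median was −0.05, as over all genes, with Idh1 and Fh1 past the SD. Of all genes, 6413 of 11449 were below 0 there. Of all 9 genes, only Acod1 was at least 2-fold higher or lower with LPS, in each genotype, against 8.06% of all genes in LXR-DKO and 7.72% in WT cells. At 1.5-fold the count was 1 of 9 in LXR-DKO cells (22.1% of all genes) and 2 of 9 in WT cells (20.3%), the second gene being Fh1.

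Between genotypes, 3 of the 9 genes were at least 2-fold higher or lower with LPS, namely Sdhb and Acod1 lower and Fh1 higher, against 26.6% of all genes. Without LPS 2 of 9 were, Acod1 and Sdhb, both lower, against 22.0% of all genes. At 1.5-fold 4 of 9 passed both with LPS (47.8% of all genes) and without LPS (42.2%), and they were Acod1, Sdha, Sdhb and Fh1 each time. With arrays scaled to the same 75th percentile, the 1.5-fold count with LPS was 8 of 9 in place of 4. This count thus depended on the scaling. The share of all genes past 1.5-fold under that scaling is not given here, and the median over all genes was −0.11 in place of 0.15. The sides were less even: 8 of 9 genes were below 0 with LPS, with a median of −0.49 where the median over all genes was 0.15, and 8 of 9 without LPS, with a median of −0.36 where the median over all genes was 0.05. Of all genes, 5005 of 12014 were below 0 with LPS and 5547 of 11728 without. By probe set the split was 12 of 16 below 0 with LPS and 10 of 16 without. Cs and Idh3a had probe sets on both sides of 0 in both comparisons, and Mdh2 without LPS. The summed neutrophil, mast cell, B cell and proliferation signals given above were higher on the same LXR-DKO arrays, and their part in these counts was not tested. The 3′ to 5′ signal ratios of Gapdh, a check on RNA quality, were 0.819 and 0.757 in LXR-DKO LPS and control cells, against 0.842 and 0.818 in WT LPS and control cells. Those of Actb were 1.28 and 1.14 in LXR-DKO LPS and control cells, against 1.26 and 1.11 in WT LPS and control cells, higher on both LPS arrays, and the part of this in the LPS ratios was not tested.

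**Figure D3:**
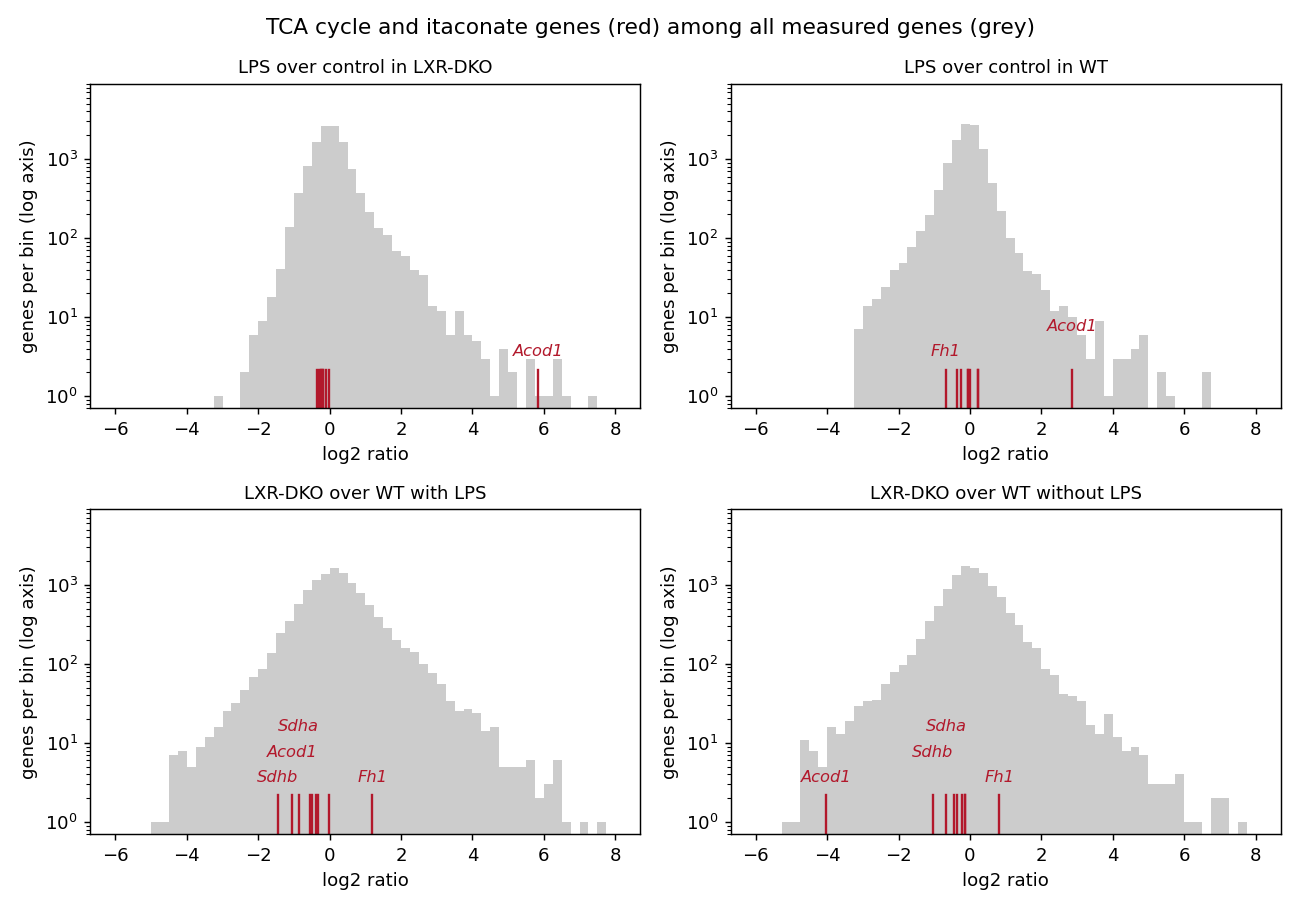
Histograms of the log2 ratios of all measured genes (grey, genes per bin on a log axis) in the 4 comparisons, with the 9 genes as red ticks and those at least 1.5-fold higher or lower named. Acod1 lies at 5.83 for LPS in LXR-DKO cells, at 2.86 in WT cells and at −4.03 between genotypes without LPS; the other ticks lie between −1.45 and 1.19.

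The LPS response of the 8 enzymes differed little between genotypes. The difference of the log2 responses, LXR-DKO minus WT, lay between −0.41 for Sdhb and 0.37 for Fh1, with a median of −0.13, and none was past the SD between probe sets of 0.43. Only Acod1, at 2.98, was past 2-fold, against 9.67% of all genes. After each gene's mean over the 4 arrays was taken off, Cs and Mdh2 had the closest profiles, with a Euclidean distance of 0.17 on the log2 scale, followed by Idh3a and Ogdh at 0.19. Sdhb and Fh1 were the farthest apart of the 8 enzymes, at 2.34, and Acod1 was between 4.83 (Sdhb) and 6.13 (Fh1) from the others.

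Among 9623 genes that reached the floor on every array, those with the profile nearest to Acod1 over these 4 arrays were Cxcl3 at a distance of 1.18, Cxcl2 at 1.63, Fstl1 at 1.63, Rsad2 at 1.75 and Clec4e at 1.78. Cxcl3 and Cxcl2 encode chemokines that attract neutrophils. Cxcl3 had 5973.3 in LXR-DKO LPS, 162.6 in LXR-DKO control, 8338.6 in WT LPS and 899.5 in WT control cells, thus also its lowest value in the LXR-DKO control array. The genes nearest to the median profile of the 8 enzymes were Snx14, Trappc11, Vipas39, Tuba4a and Sft2d1, at distances of 0.034 to 0.050. With 4 arrays such closeness is a description.

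The rest of the pathway was read from lists of related genes. For the other TCA cycle enzymes, 12 genes were measured. In LXR-DKO cells none was 2-fold higher or lower with LPS (8.06% of all genes were), with a median log2 ratio of −0.07, and Idh2 (−0.80), Suclg1 (−0.44) and Suclg2 (−0.37) had the largest ratios. In WT cells 1 of 12 was (7.72% of all genes), Suclg2 at −1.58, followed by Idh2 at −0.64 and Idh3g at −0.47, with a median of −0.12. Suclg2, a subunit of the GTP-forming succinyl-CoA ligase, had 378.9 and 488.8 in LXR-DKO LPS and control cells, against 151.9 and 455.1 in WT LPS and control cells, so the WT LPS array alone was low. Its difference of responses was 1.22, and its second probe set gave −0.01 in LXR-DKO and −0.88 in WT cells. Between genotypes the median of the list was −0.37 with LPS and −0.51 without. With LPS 2 of 12 passed 2-fold (26.6% of all genes), Suclg2 higher at 1.32 and Sdhd lower at −1.04, followed by Dld at −0.90. Without LPS none did (22.0% of all genes), and Dld (−0.80), Idh3b (−0.71 by both of its bright probe sets) and Sdhd (−0.66) had the largest ratios. Dld is the lipoamide dehydrogenase that the 2-oxoglutarate and pyruvate dehydrogenase complexes share.

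For pyruvate entry 11 genes were measured, and Pdk4 was below the floor on all 4 arrays. With LPS the median was −0.14 in LXR-DKO cells, where none passed 2-fold (8.06% of all genes) and Pdp1 (−0.68), Pcx (0.61) and Pdk3 (−0.59) led. It was −0.12 in WT cells, where Pdk3 alone passed 2-fold (7.72% of all genes) at −1.13 and Pcx (0.86) and Pdk1 (−0.50) followed. Pcx, pyruvate carboxylase, refills the cycle with oxaloacetate. Between genotypes 2 were higher and 3 lower by 2-fold with LPS, 5 of 11 against 26.6% of all genes, and none without LPS, against 22.0%. The higher ones, Pdk3 (1.44) and Pdk2 (1.14), are kinases that switch pyruvate dehydrogenase off. The lower ones were Pdp1 (−1.25), a phosphatase that switches it on, Pdhb (−1.10), a subunit of the enzyme, and Mpc1 (−1.03), part of the mitochondrial pyruvate carrier. Genes of the same kinds did not all take these sides: the phosphatase Pdp2 was at 0.63 and the kinase Pdk1 at −0.003. Other probe sets of Pdk1 gave 0.67 (1423748_at) and −0.11 (1435836_at), so no direction can be given for it. The second Pdp1 probe set (1438201_at) gave −0.80. Pdk2 has 1 probe set, with 81.8 in LXR-DKO LPS and 37.2 in WT LPS cells, the second close to the floor. Under other scalings, floors and choices of probe set, the smallest ratios were 1.15 for Pdk3, 0.73 for Pdk2, −0.55 for Pdp1, −0.78 for Pdhb and −0.71 for Mpc1. Pdhb had 1172.9 and 1130.4 in LXR-DKO LPS and control cells, against 2517.3 and 2256 in WT LPS and control cells, and without LPS it was at −0.997 (just inside 2-fold), with Pdk3 at 0.90 and Mpc1 at −0.60. Medians of the list were −0.37 with LPS and −0.21 without.

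For glutamine and aspartate supply, malic enzymes and carriers, 13 genes were measured, and Me3 was below the floor. With LPS in LXR-DKO cells the median was −0.27, and Me1 was the 1 gene of 13 past 2-fold (8.06% of all genes), at 1.02 from the signals 68.1 with LPS and 33.5 without, the second close to the floor; Me2 was at −0.90 and Slc1a5 at −0.63. In WT cells none of the 13 passed 2-fold (7.72% of all genes), the median was −0.19 and Slc25a10 (−0.72), Slc25a12 (−0.62) and Slc1a5 (−0.59) led. Between genotypes Me1, the cytosolic malic enzyme that makes NADPH, and Gpt2, a mitochondrial alanine aminotransferase, were lower, at −2.09 and −2.14 with LPS and −3.02 and −1.62 without. Me1 had 68.1 and 33.5 in LXR-DKO LPS and control cells, against 289.9 and 271.5 in WT LPS and control cells, and its second probe set was below the floor in LXR-DKO cells. The brightest Gpt2 probe set without a suffix gave −0.88 with LPS and −0.25 without. Past 2-fold upwards were the dicarboxylate carrier Slc25a10 with LPS (1.07) and the mitochondrial malic enzyme Me2 without LPS (1.21), so that 3 of 13 passed 2-fold in each comparison, against 26.6% of all genes with LPS and 22.0% without. The median of this list was above 0, at 0.43 with LPS and 0.24 without.

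The list of Clybl, which breaks down the citramalyl-CoA formed from itaconate, and 9 genes of NRF2 and its response differed most between genotypes of the 5 lists. All 10 were measured, and 7 were at least 2-fold lower in LXR-DKO cells both with LPS, where 8.76% of all genes were 2-fold lower, and without LPS, where 9.28% were. The medians were −2.29 with LPS and −1.95 without. Nqo1, a quinone reductase, had 112.2 and 108.3 in LXR-DKO LPS and control cells, against 1945.2 and 1420.1 in WT LPS and control cells, log2 ratios of −4.12 with LPS and −3.71 without. Slc7a11, the cystine carrier, had 504.9 and 84.7 in LXR-DKO LPS and control cells, against 3213.1 and 1343.5 in WT LPS and control cells, log2 ratios of −2.67 and −3.99. Hmox1, haem oxygenase, had 775 and 319.3 in LXR-DKO LPS and control cells, against 6094.8 and 2952.9 in WT LPS and control cells, log2 ratios of −2.98 and −3.21. The LXR-DKO arrays were below the WT arrays for each of these 3 genes, and how many of all genes do the same was not counted. The other genes past 2-fold were Srxn1 (−2.44 with LPS and −2.29 without), Gclm (−2.37 and −2.35), Gclc (−2.22 and −1.61) and Txnrd1 (−1.61 and −1.48), which serve glutathione synthesis and thiol repair. Clybl was at −0.84 with and without LPS. The remaining genes of the list differed less: Nfe2l2 was at −0.57 with LPS and −0.33 without, and Keap1 at 0.01 and 0.25. A dimmer second probe set of Nfe2l2 (1457117_at) gave 1.17 with LPS and −0.005 without. With LPS, Slc7a11 and Hmox1 passed 2-fold upwards in LXR-DKO cells, at 2.58 and 1.28, where 6.23% of all genes were 2-fold higher, and in WT cells, at 1.26 and 1.05, where 2.93% were. Nfe2l2, which encodes NRF2 itself, was next in both by its brightest probe set, at 0.36 and 0.60. Its dimmer probe set gave 1.61 in LXR-DKO cells, from 88.5 with LPS and 11.5 without, the second set to the floor. In WT cells that probe set gave 0.44. The list's medians were 0.18 in LXR-DKO and 0.44 in WT cells.

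**Figure D4:**
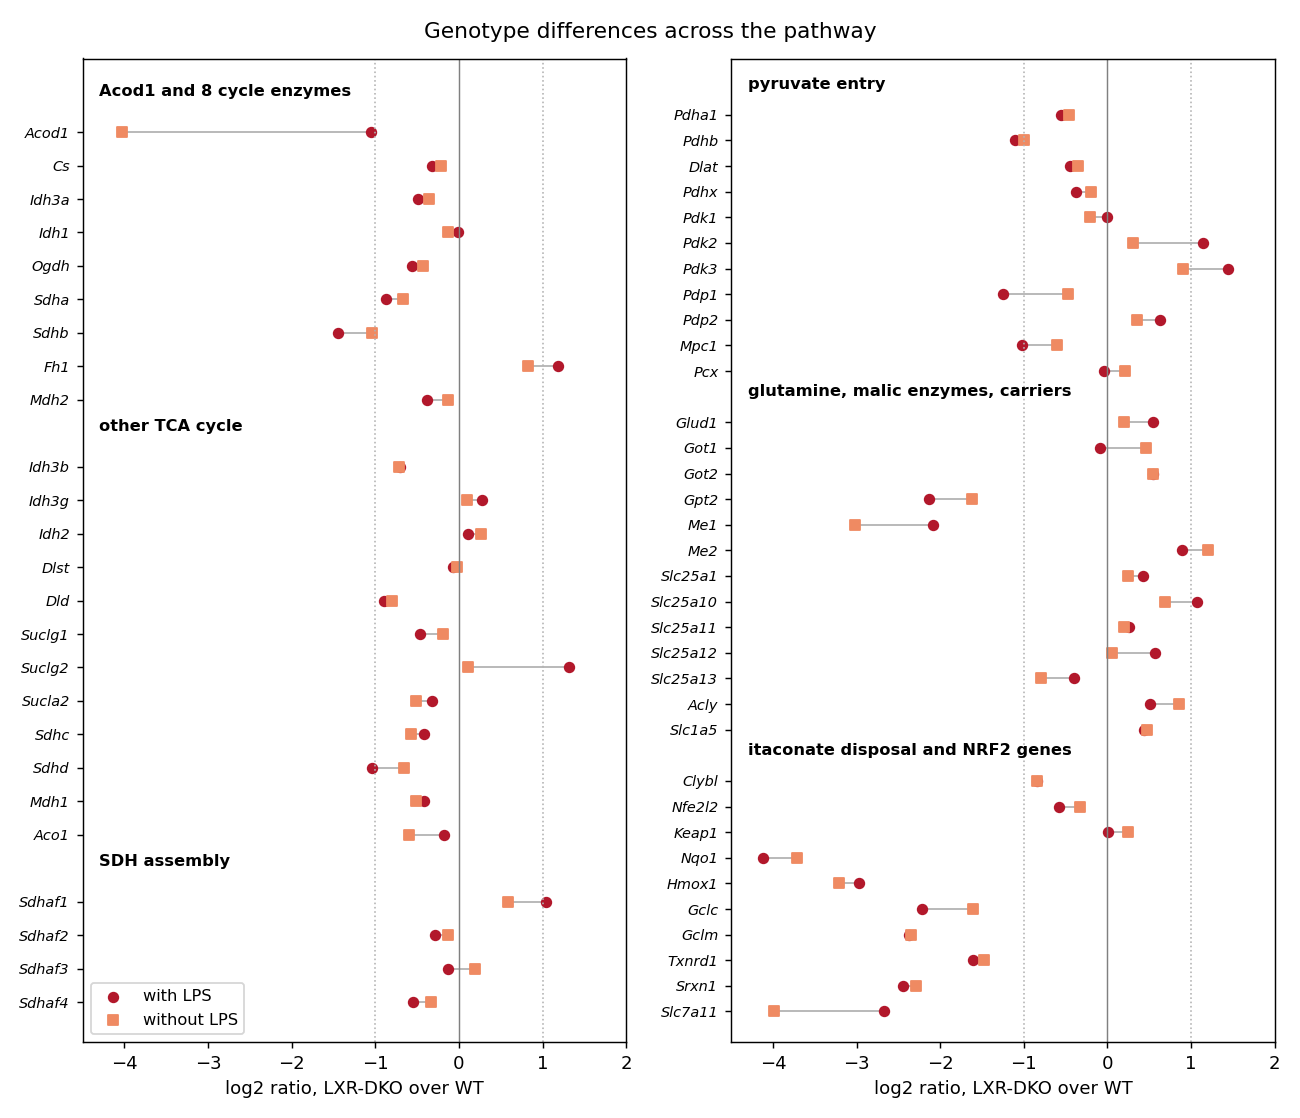
Log2 ratio of LXR-DKO over WT (x axis) for Acod1, the 8 cycle enzymes and the measured genes of the related lists, with LPS (red circles) and without LPS (orange squares), 1 array per group; dotted lines mark 2-fold. All 4 succinate dehydrogenase subunits lie left of 0 and Fh1 right of it, and 7 genes of the itaconate disposal and NRF2 list lie left of −1 at both conditions.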

How the data were processed

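RNA from 4 cultures was hybridised to 1 mouse expression array each. Per the labels' protocols, total RNA was purified on columns, and per the submitters' processing notes the authors computed signals with MAS5; its version and settings are not given in the sources used here. What was deposited is 1 intensity per probe set and array, not log-transformed, which the authors had brought to the same trimmed mean on every array. Precision is limited by the number of arrays.

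The table held 45101 probe sets; 64 controls were left out, and of the 45037 others 34945 had 1 gene symbol, 932 had several and 9160 had none in the platform annotation. Signals under 28.9, the pooled median, were set to it, a gene was read from its brightest probe set, and log2 ratios were formed for LPS over control in each genotype, LXR-DKO over WT with and without LPS, and the difference of the LPS responses. A gene was measured in a comparison where an array reached the floor. With 1 array per group no test was run, and genes at least 2-fold and 1.5-fold higher or lower were counted. Calculations used Python 3.11.15, numpy 2.4.6 and pandas 2.3.3, and were tested on simulated data. The genes named are the 9 genes, the genes of 5 related lists with the 3 largest ratios in a comparison or past 2-fold, the markers and the 5 genes with the nearest profiles. The genes, lists and tests were chosen with earlier results of these data known. Alternatives varied the scaling, the floor and the choice of probe set.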

Additional observations from a re-analysis of the deposited data

How the results depend on the processing

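No paired analysis was possible because each group has 1 array and the labels carry no shared replicate numbers; for the same reason no replicate could be left out. Over 9 alternatives (4 scalings, 3 treatments of dim values and 2 choices of probe set), the 9 genes gave 390 ratios and differences, of which 371 kept the sign of the reported value and 383 moved by less than the SD between probe sets. Idh1, Fh1 and Mdh2 have no value from probe sets without a suffix. The sign changes were in small ratios of Cs, Ogdh, Sdha, Mdh2, Idh3a and Idh1. The genotype ratio with LPS ranged from −1.74 to −1.13 for Sdhb, −1.17 to −0.54 for Sdha, −1.34 to −0.73 for Acod1 and 0.89 to 1.51 for Fh1, and without LPS from −1.22 to −0.81, −0.85 to −0.44, −4.21 to −2.49 and 0.63 to 1.05 for the same genes. For Sdhc and Sdhd the highest values were −0.10 and −0.72 with LPS and −0.34 and −0.43 without.

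Scaling to the 75th percentile gave 1 gene of 9 in place of 2 at 1.5-fold for LPS in WT cells and 8 in place of 4 for LXR-DKO over WT with LPS. Shares of all genes at 1.5-fold under that scaling are not given here. Probe sets without a suffix, where Idh1, Fh1 and Mdh2 have no value, gave 1 in WT cells and 2 in place of 1 in LXR-DKO cells for LPS at 1.5-fold. In WT cells the gene no longer counted was Fh1, for want of a value. In LXR-DKO cells the gene added was Idh3a, read from its dim probe set 1422500_at at −0.63. Quantile normalization gave 1 in place of 2 at 2-fold for LXR-DKO over WT without LPS. The cause of the changes under the 75th percentile and quantile scalings was not tested. Scaling also moved the median of all genes for LXR-DKO over WT, 0.15 with LPS and 0.05 without, to −0.11 and −0.12 by the 75th percentile and to 0.43 and 0.26 by the hybridisation controls. Of the genes past 2-fold for LXR-DKO over WT, 2141 of 3194 with LPS and 57.7% without were higher, against 47.1% and 44.1% by the 75th percentile and 83.3% and 72.8% by the hybridisation controls, and 55.4% with LPS by quantile normalization. For LPS in WT cells 336 of 884 were higher, against 50.6% by the 75th percentile. The difference of responses of Me1, 0.93, reversed to −0.0946 with the floor at 177.4, to −0.032 with the median over probe sets and to −0.99 with probe sets without a suffix.

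Counts of all genes past 2-fold ranged from 438 to 2101 (reported: 950) for LPS in LXR-DKO cells, 338 to 2068 (884) in WT cells, 1632 to 4658 (3194) for LXR-DKO over WT with LPS, 1355 to 3928 (2575) without, and 429 to 3147 (1207) for the difference of responses. At 1.5-fold the ranges were 1297 to 4902 (2603), 1012 to 4705 (2321), 3303 to 8294 (5747), 2896 to 7418 (4951) and 1323 to 6186 (3067). The ends of the 2-fold ranges came from floors of 177.4 and 8.8, which also change how many genes are measured. For LPS in LXR-DKO cells they were 438 of 7542 and 2101 of 15989 genes, against the reported 950 of 11793. With LPS between genotypes they were 1632 of 7614 and 4658 of 16075, against 3194 of 12014. Gpt2 and Me1 without LPS came to −0.40 and −0.61 with the floor at 177.4, as their LXR-DKO signals lie under it.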
